A study of Mus musculus with 2 samples.

Results

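The aquaporin gene family was described in polyadenylated RNA of adult mouse lung. The members were taken by symbol: Aqp1, Aqp2, Aqp3, Aqp4, Aqp5, Aqp6, Aqp7, Aqp8, Aqp9 and Aqp11, which are 10 of the 43346 gene rows in each library, and all 10 were found. The tissue was lung of C57BL/6J mice at 8 weeks of age, from littermates of mixed sex, with no treatment or transgene named in the labels. There were 2 libraries of stranded paired-end reads, called replicates 1 and 2 of 1 group, with 48234745 and 44182836 expected counts on gene rows. The libraries share a donor record in the labels but come from separate tissue samples, and the number of animals behind each is not given, so part of their spread may be technical. With 1 group there was no comparison of conditions and no p-value, and every difference below compares these libraries only. Markers of lung were high in both: the 6 alveolar type 2 markers, which include the surfactant genes Sftpc and Sftpb, summed to 30269 and 31420 TPM, a length-scaled level, and none was 2-fold apart. The libraries stood apart in other tissues: markers of squamous epithelium, skeletal muscle and brown fat were higher in replicate 1, and those of intestine and exocrine pancreas in replicate 2, with values given beside the channels known from those cells.

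Aquaporins are membrane channels that let water cross cells along an osmotic gradient. Each channel folds around a pore lined by a pair of short loops with the conserved residues asparagine, proline and alanine, known as NPA boxes. Some members, the aquaglyceroporins, also pass glycerol and other small solutes, and a further branch of the family, the superaquaporins, sits on membranes inside the cell and has altered boxes. In the lung, Aqp1 is known from the endothelium of capillaries, Aqp5 from alveolar type 1 cells and airway glands, and Aqp3 and Aqp4 from the airway epithelium.

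The NPA boxes line the pore of these channels, so a few are shown before the levels. The in-frame codons for asparagine, proline and alanine, AACCCNGCN or AATCCNGCN, were searched on the coding strand of 1 coding sequence a gene in GENCODE M21 on mm10. Of 21514 coding sequences searched, 7.39% held at least 1 match and 0.711% held at least 2. Aqp1, Aqp2, Aqp3, Aqp4, Aqp5, Aqp6, Aqp8 and Aqp9 each held 2, Aqp11 held 1, and Aqp7 held 0. The letters of a box are in capitals, with 12 bases of coding sequence on each side, all written 5′ to 3′ on the coding strand. The first pair belongs to Aqp1 (plus strand, capitals at chr6:55336716-55336724 and chr6:55345837-55345845) and the second to Aqp5 (plus strand, chr15:99591476-99591484 and chr15:99593270-99593278), the channels with the highest levels.
Aqp1 box 1: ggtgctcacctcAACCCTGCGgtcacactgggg
Aqp1 box 2: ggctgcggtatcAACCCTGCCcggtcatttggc
Aqp5 box 1: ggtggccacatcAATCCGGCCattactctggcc
Aqp5 box 2: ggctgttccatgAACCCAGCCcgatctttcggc

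The second boxes of the aquaglyceroporins Aqp3 (minus strand, chr4:41093841-41093849) and Aqp9 (minus strand, chr9:71122850-71122858) and the single box of Aqp11 (minus strand, chr7:97729053-97729061) are shown for contrast with those of Aqp1 and Aqp5.
Aqp3 box 2: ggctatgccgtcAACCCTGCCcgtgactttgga
Aqp9 box 2: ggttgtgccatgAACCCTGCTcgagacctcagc
Aqp11 box: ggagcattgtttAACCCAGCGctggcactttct

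In Aqp3 and Aqp9 the second codon after box 2 was gac, for aspartate, the residue known to mark glycerol channels. At the same place Aqp1 had tca, Aqp2 tcc, Aqp5 tct and Aqp6 tcc, all for serine, and Aqp8 had gcc, for alanine; this codon of Aqp4 was not analysed here. The 2 boxes stood 116 codons apart in Aqp1, Aqp2, Aqp4 and Aqp5, 114 in Aqp6, 118 in Aqp8 and 132 in both Aqp3 and Aqp9. Aqp7 is known to carry altered forms of both boxes and Aqp11 an altered first box; the search shows only that the letters above were not in frame there. A match describes the sequence and measures no channel activity.

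The lung expressed mainly 2 aquaporin genes, Aqp1 and Aqp5. Levels are given as TPM, which are scaled for gene length and to the same total in each library, and so allow genes to be set side by side. The 10 members summed to 1414 TPM in replicate 1 and 1515 in replicate 2 (1465 ± 71.3, SD, n = 2), which is 0.141% and 0.152% of all TPM. Aqp1 and Aqp5 together made up 95.8% and 98.5% of the family's TPM. By class, the 6 water channels (Aqp1, Aqp2, Aqp4, Aqp5, Aqp6 and Aqp8) held 96.1% and 98.7%, the 3 aquaglyceroporins (Aqp3, Aqp7 and Aqp9) 3.40% and 0.576%, and Aqp11 0.521% and 0.681%. Thus the aquaglyceroporins summed to 48.1 TPM in replicate 1 and 8.72 TPM in replicate 2, and that gap came mostly from Aqp3.

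Of the 10 members, 6 reached 1 TPM or more in both libraries: Aqp1, Aqp5, Aqp3, Aqp11, Aqp7 and Aqp4. The same held for 32.0% of all gene rows. Aqp2, Aqp9 and Aqp8 passed that level in 1 library each, and Aqp6 had no count. Of the 1.61 TPM of Aqp9 in replicate 1, 0.76 TPM was on a processed transcript of 428 bases with 6 counts. Of the 5.72 TPM of Aqp3 in replicate 2, 2.84 TPM was on a retained-intron transcript of 401 bases with 19.2 counts. These levels thus rest in part on few reads. In falling order of mean TPM the members stood as Aqp1, Aqp5, Aqp3, Aqp11, Aqp7, Aqp4, Aqp2, Aqp9, Aqp8 and Aqp6. Some neighbours in that order had overlapping ranges over the libraries: Aqp3 with Aqp11, Aqp7 with Aqp4, Aqp2 with Aqp9, and Aqp9 with Aqp8. Without length scaling, by counts, 5 of the 10 kept their place, and in replicate 2 alone only 4 did.

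**Figure D1:**
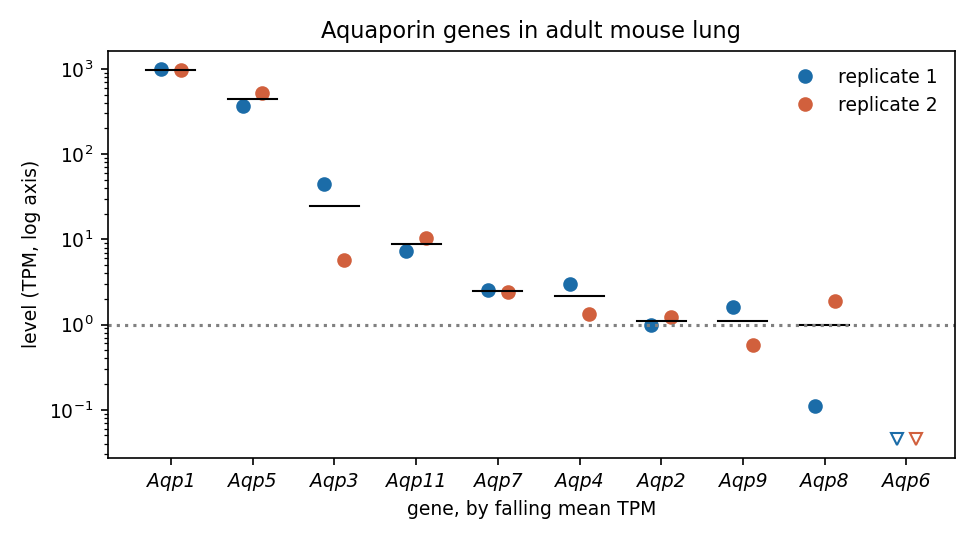
TPM of each aquaporin gene in replicate 1 and replicate 2 on a log axis, with the mean as a black bar and a dotted line at 1 TPM; the open triangles for Aqp6 stand at the level that 3 counts would give. Aqp1 and Aqp5 lie far above the rest in both libraries, and the points of Aqp3 and Aqp8 lie far apart.

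For the difference between the libraries, a log2 ratio of replicate 2 over replicate 1 was taken from counts scaled by library (CPM), with TMM scaling and 2 as the prior count, over the genes whose mean count was 10 or more. Of the members, 9 of 10 passed that count, and 3 of them were 2-fold or more apart, where 10.1% of all 17334 genes tested were. Aqp3 and Aqp9 were higher in replicate 1, a direction that held 6.69% of all genes tested, and Aqp8 was higher in replicate 2, as were 3.37%. These shares are also the background for the counts of marker genes below. The marker lists were chosen with earlier results of these data known. The median log2 ratio was 0.30 over the 9 members and -0.02 over all genes tested. On deposited TPM with 0.1 added the median of all genes was -0.22, and with CPM scaled by library size alone it was -0.15, so small ratios depend on the scaling. Folds below are ratios of scaled counts without the prior count, with 95% Clopper-Pearson intervals that cover counting error only. At low counts they are therefore wider than the log2 ratios given beside them.

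**Figure D2:**
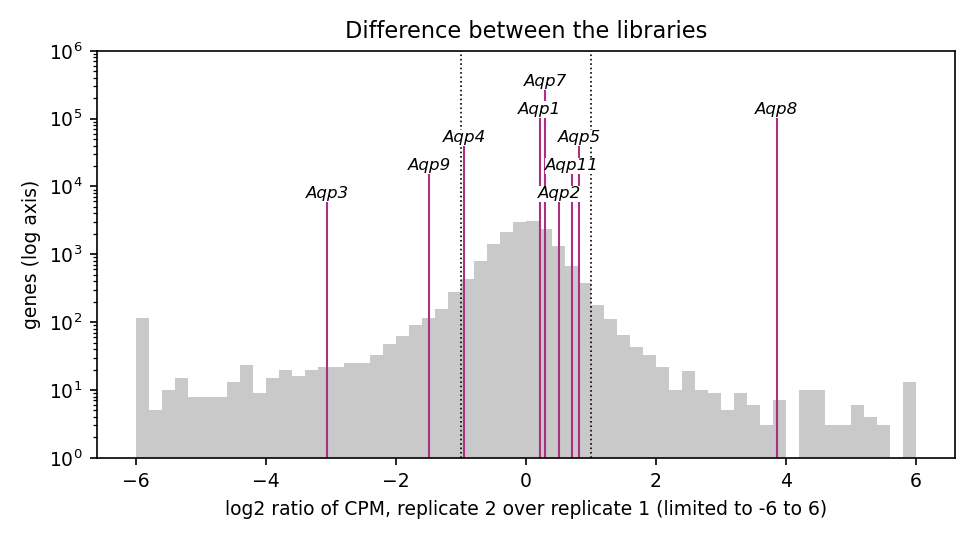
Grey bars count the 17334 genes tested by their log2 ratio of CPM, replicate 2 over replicate 1 (log count axis, ratios limited to the ends shown), and the labelled lines mark the 9 aquaporin genes. Dotted lines mark 2-fold: Aqp3 and Aqp9 lie beyond it on the left, Aqp8 beyond it on the right, and Aqp4 just inside it at -0.95.

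Among the water channels, Aqp1 (ENSMUSG00000004655.5, chr6:55336432-55348555 on mm10, plus strand) was the most abundant. Aqp1 is the constitutively open water channel of red cells and capillary endothelium. It had 86380 counts and 989 TPM in replicate 1 and 83077 counts and 975 TPM in replicate 2 (982 ± 10.5 TPM, SD, n = 2). The libraries stood close together, and Aqp1 was above 99.3% of the genes detected at 1 TPM in both, the 94th row of the whole table by mean TPM. The deposited TPM lay slightly above its own deposited interval in both libraries, which was 972 to 985 and 957 to 971. Aqp1 made up 70.0% and 64.3% of the family's TPM. By scaled counts Aqp1 was 1.15-fold higher in replicate 2 (1.14 to 1.16; log2 ratio 0.21), whereas on deposited TPM with 0.1 added its ratio turned to -0.02, so no direction is given.

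The markers of the cells known for Aqp1 did not move together. All 6 endothelial markers, among them the junction genes Cldn5 and Cdh5, were within 2-fold, with 1775 and 1885 TPM in all and a median log2 ratio of 0.06. Of 6 erythroid markers, 5 were higher in replicate 2 by 2-fold or more, with 22916 and 63392 TPM in all and a median of 1.49. Their part in the level of Aqp1 was not tested. In bulk tissue, fewer cells of a type and less RNA per cell cannot be told apart, here and for every gene below.

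Aqp5 (ENSMUSG00000044217.12, chr15:99590782-99594829, plus strand) encodes the water channel of the apical membrane of alveolar type 1 cells and of secretory glands. It had 16575 counts and 365 TPM in replicate 1 and 24377 counts and 517 TPM in replicate 2 (441 ± 107 TPM, SD, n = 2), so replicate 2 was the higher. The ranges of Aqp5 and Aqp1 did not overlap: Aqp1 was 2.71 times as high in TPM in replicate 1 and 1.88 times in replicate 2. Aqp5 was 1.76-fold higher in replicate 2 by scaled counts (1.73 to 1.80; log2 ratio 0.82), which is inside the 2-fold limit.

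Alveolar type 1 markers did not show that gap as a list, and their directions were mixed, with log2 ratios of 0.55 for Hopx and -0.81 for Pdpn. All 7 were within 2-fold (Akap5 passed it towards replicate 1 with library size scaling, at -1.06), with 4033 and 4548 TPM in all and a median log2 ratio of -0.23, against 0.82 for Aqp5. Of 5 club and secretory markers, Bpifa1 and Muc5b stood at least 2-fold higher in replicate 2 (Muc5b not with library size scaling), and the median was 0.33. Of 6 gland markers, 4 were tested; Dmbt1 and Lpo were higher in replicate 2, at 3.57 and 0.79 TPM there, and Ltf lay the other way, at 11.3 and 5.16 TPM (log2 ratio -0.90, and past 2-fold at -1.04 with library size scaling), while the salivary genes Smr3a and Prol1 had no counts in either library. The part of these cells in the difference of Aqp5 was not tested.

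The transcripts of Aqp5 divided differently in the libraries. Aqp5-201 stood at 178.6 TPM in replicate 1 and 14.2 TPM in replicate 2, and Aqp5-202 at 187 and 503 TPM. Aqp5-202 thus took 51.1% of the gene's TPM in replicate 1 and 97.2% in replicate 2 (74.2% ± 32.6, SD, n = 2), by the authors' deposited percentages. The deposited intervals on the TPM of Aqp5-201, 164 to 190 and 7.31 to 24.4, did not overlap between the libraries. By expected counts the share of Aqp5-202 was 54.6% and 97.6%, so the split did not rest on length scaling.

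Both Aqp5 transcripts encode the same coding sequence of 798 bases in GENCODE M21, and they differ only outside it. Aqp5-201 splices out 133 bases before the coding sequence (chr15:99590965-99591097) and ends at 99594608, while Aqp5-202 keeps those bases and runs 221 bases further, to 99594829. The deposited length of Aqp5-202 is 1551 bases, against 1797 in M21, so the transcript used in the quantification was shorter than the M21 model. A length of 1551 is what the M21 model gives when started at the RefSeq start of Aqp5, 99591028, which lies inside the 133 bases; the M4 models themselves were not used here.

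**Figure D3:**
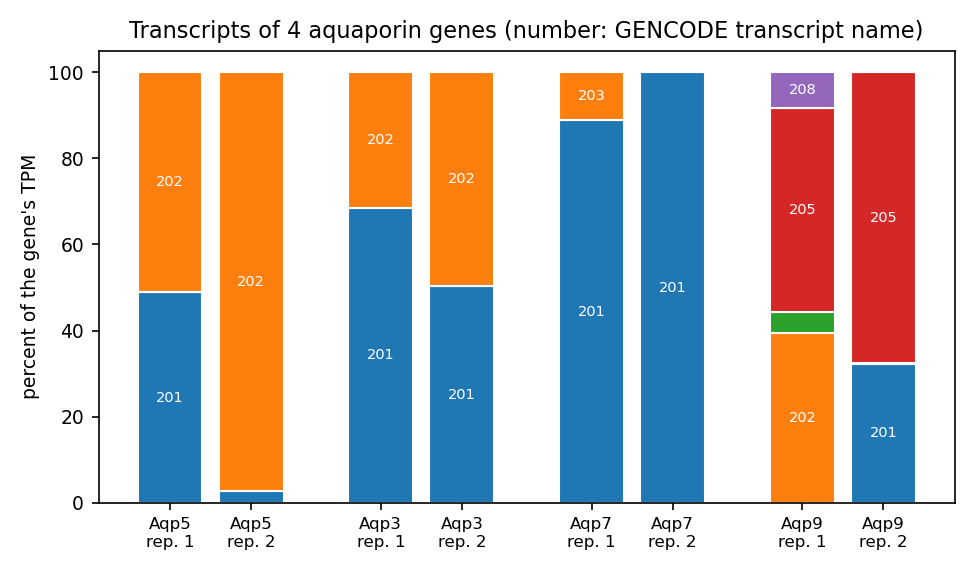
Stacked bars give the percent of each gene's TPM on its transcripts in each library for Aqp5, Aqp3, Aqp7 and Aqp9, with GENCODE transcript numbers inside. Aqp5-202 fills 51.1% of the bar in replicate 1 and 97.2% in replicate 2, while Aqp7-201 fills most of the bar in both.

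Aqp5 lies between a pair of relatives of the kidney that were low or without counts here. Aqp2 (ENSMUSG00000023013.4, chr15:99579055-99584547), the vasopressin-regulated channel of the collecting duct, ends 6.23 kb before Aqp5 starts. Aqp6 (ENSMUSG00000043144.5, chr15:99601400-99605477), a channel of intercalated cell vesicles, starts 6.57 kb after Aqp5 ends. All 3 genes are on the plus strand within 26.4 kb.

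Aqp2 had 43 counts and 0.99 TPM in replicate 1 and 52 counts and 1.22 TPM in replicate 2 (1.10 ± 0.163 TPM, SD, n = 2). The libraries were alike within counting error, at 1.45-fold higher in replicate 2 with an interval of 0.949 to 2.22. Aqp5 was 369 and 424 times as high as Aqp2 in TPM. Aqp6 had 0 counts in both libraries, which allows up to 3 counts each, or 0.0450 and 0.0459 TPM. None of 5 kidney markers reached 1 TPM in both libraries, and they summed to 0.400 and 0.510 TPM. The vasopressin receptor gene of the kidney, Avpr2, also had no counts in either library.

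**Figure D4:**
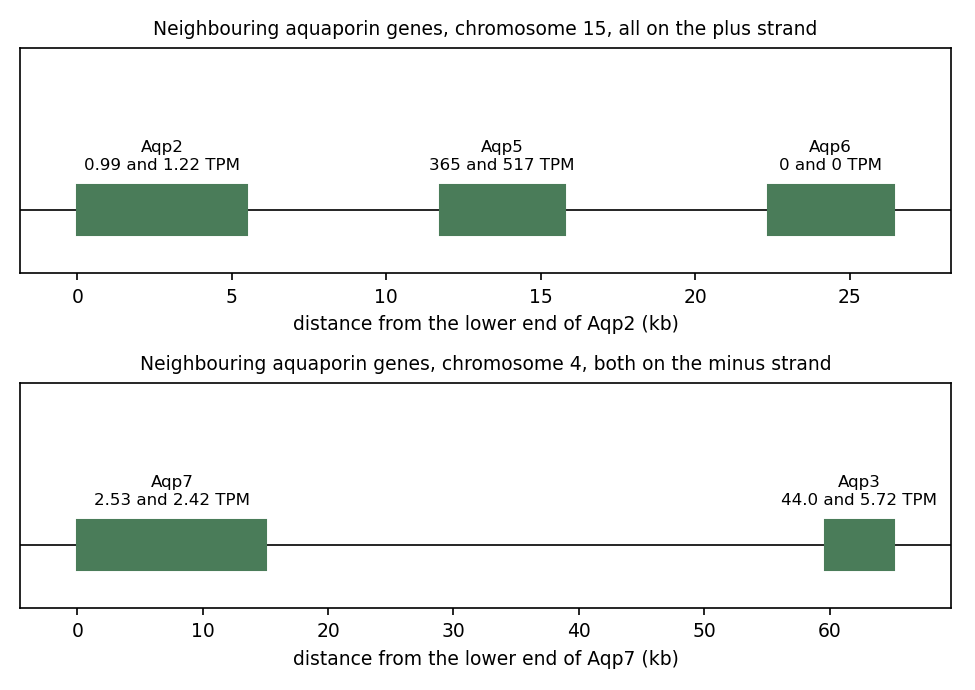
Gene bodies drawn to scale as distance from the first base of Aqp2 on chromosome 15 (top) and of Aqp7 on chromosome 4 (bottom), with the TPM of replicates 1 and 2 above each gene. Aqp5, at 365 and 517 TPM, stands between Aqp2, at 0.99 and 1.22 TPM, and Aqp6, which had no counts.

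Aqp4 (ENSMUSG00000024411.9, chr18:15389496-15410982, minus strand) encodes a water channel of astrocyte endfeet, of fast skeletal muscle fibres and of the basolateral side of airway epithelium. It had 529 counts and 3.01 TPM in replicate 1 and 228 counts and 1.33 TPM in replicate 2 (2.17 ± 1.19 TPM, SD, n = 2), so replicate 1 was the higher. By scaled counts it was 1.94-fold higher there (1.65 to 2.27; log2 ratio -0.95), just inside 2-fold. It passed 2-fold with library size scaling (-1.08) and on deposited TPM with 0.1 added (-1.12).

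Skeletal muscle markers lay the same way as Aqp4. All 6 were at least 2-fold higher in replicate 1, where 6.69% of all genes tested were. They summed to 2709 against 59.4 TPM, with a median log2 ratio of -8.81, and Myh4 and Tnnc2 had no counts in replicate 2. All 4 astrocyte markers were within 2-fold (Gja1 passed it with library size scaling, at -1.08), and their defining member Gfap was at 0.21 and 0.14 TPM. The 5 ciliated cell markers of the airway were within 2-fold too, with a median of -0.10. Among 5 basal airway markers, 4 were at least 2-fold higher in replicate 1, with 194 against 5.39 TPM in all and a median of -4.67. In replicate 2 the muscle markers Ckm and Tnnt3 remained at 54.7 and 3.56 TPM, while Acta1 and Myh1 were at 1.09 and 0.02 TPM. The part of muscle or of airway cells in the difference of Aqp4 was not tested. The gene body of Aqp4 overlaps the antisense gene AC133525.2 of a later annotation. Whether the overlap reaches exons was not checked, and no source used here gives the strand setting of the counting. So it is not known whether reads of that gene are included.

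Aqp8 (ENSMUSG00000030762.7, chr7:123462291-123468004, plus strand) encodes a channel for water and ammonia known from the colon, pancreas, liver and testis. It had 5 counts and 0.11 TPM in replicate 1 and 85 counts and 1.89 TPM in replicate 2 (1.00 ± 1.26 TPM, SD, n = 2), so replicate 2 was far higher. It was 20.4-fold higher in replicate 2 (8.40 to 64.4). Its log2 ratio of 3.86, with the prior count of 2, was the widest among the 9 members tested. When 1 TPM was added before the log its ratio was 1.38, and that of Aqp3 was wider, at -2.74. Its mean count was under 50, and a minimum at that value would have left it out. All of its TPM was on Aqp8-201 in both libraries.

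Markers of 2 digestive organs were higher in replicate 2 alongside Aqp8. All 7 intestinal markers were 2-fold or more higher there, where 3.37% of all genes tested were. They summed to 3.13 and 131 TPM, with a median log2 ratio of 5.97, led by the mucin gene Muc2 at 1.64 and 49.5 TPM. All 6 exocrine pancreas markers were too, with 3.73 and 115 TPM in all and a median of 4.98, and Sycn had no counts in replicate 1. The 4 testis markers summed to 1.49 and 3.77 TPM, and the 1 tested, Prm2, was higher in replicate 2 (log2 ratio 1.29). Liver markers lay the other way, with 20.3 and 8.07 TPM. The part of such cells in the level of Aqp8 was not tested.

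Among the aquaglyceroporins, Aqp3 (ENSMUSG00000028435.8, chr4:41092722-41098183, minus strand) had the highest mean level and the widest gap. Aqp3 encodes the glycerol and water channel of the basolateral membrane of stratified and basal epithelia. It had 1790 counts and 44.0 TPM in replicate 1 and 177 counts and 5.72 TPM in replicate 2 (24.9 ± 27.1 TPM, SD, n = 2), so the SD was larger than the mean. It was 8.44-fold higher in replicate 1 (7.23 to 9.90; log2 ratio -3.06). Its place in the family moved with the library: Aqp3 was 5.97 times as high as Aqp11 in replicate 1 and 0.554 times in replicate 2.

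By their medians, the marker lists of stratified epithelium differed in the same direction as Aqp3 and by more. All 6 squamous markers were higher in replicate 1, with 5317 against 1.17 TPM in all and a median log2 ratio of -10.97. They were led by the keratin gene Krt13, and Krt6a and Krtdap had no counts in replicate 2. Of 5 basal cell markers, 4 were higher in replicate 1, with 194 against 5.39 TPM in all and a median of -4.67. Among those 4, Trp63 had a log2 ratio of -2.97, slightly smaller than that of Aqp3, while Ngfr was at 1.69 and 1.81 TPM. The part of squamous or basal cells in its difference was not tested.

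By deposited TPM the protein-coding transcript Aqp3-201 took 68.5% of the gene in replicate 1 and 50.3% in replicate 2 (59.4% ± 12.9, SD, n = 2). The rest was on Aqp3-202, a retained-intron transcript of 401 bases (chr4:41093782-41094448) with 64 bases beyond the exon of Aqp3-201. That share rested on few reads: Aqp3-202 had 96.0 and 19.2 expected counts, and by counts Aqp3-201 held 94.6% and 89.1%. Its short length raises its TPM per count.

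Aqp7 (ENSMUSG00000028427.9, chr4:41033074-41048139, minus strand) lies 44.6 kb from Aqp3 on the same strand and encodes the glycerol channel by which adipocytes release glycerol. It had 193 counts and 2.53 TPM in replicate 1 and 198 counts and 2.42 TPM in replicate 2 (2.47 ± 0.0778 TPM, SD, n = 2). The libraries were close together, unlike those of Aqp3. By scaled counts Aqp7 was 1.23-fold higher in replicate 2 (1.00 to 1.51; log2 ratio 0.30), but on deposited TPM with 0.1 added the ratio turned to -0.06, so no direction is given. Aqp7-201 held 88.8% and 100% of its TPM.

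Adipocyte markers lay in opposite directions by type. Of 6 general adipocyte markers, 4 (3 with library size scaling) were at least 2-fold higher in replicate 2 (178 and 311 TPM in all, median log2 ratio 1.31), among them Adipoq and Plin1. Of 4 brown adipocyte markers, 3 (4 with library size scaling) were higher in replicate 1 (189 and 6.86 TPM, median -3.40), led by Ucp1, the uncoupling protein of brown fat. Aqp7 differed between the libraries less than either list. The part of either in its level was not tested.

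Aqp9 (ENSMUSG00000032204.9, chr9:71110659-71168682, minus strand) encodes the glycerol and urea channel of hepatocytes, also found in neutrophils. It had 68 counts and 1.61 TPM in replicate 1 and 19 counts and 0.58 TPM in replicate 2 (1.09 ± 0.728 TPM, SD, n = 2), so replicate 1 was the higher. It was 2.99-fold higher there (1.77 to 5.26; log2 ratio -1.49), and within 2-fold, at -0.72, when 1 TPM was added before the log. Like Aqp8, Aqp9 had a mean count under 50 and would have been left out at that minimum. The deposited TPM in replicate 2 lay below its own deposited interval of 0.671 to 2.16 on the TPM scale.

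Both cell types known for Aqp9 had markers higher in replicate 1. Of 5 neutrophil markers 3 were at least 2-fold higher there, among them S100a8 and S100a9 (126 and 46.3 TPM in all, median log2 ratio -1.08). Of all genes tested, 6.69% were higher in that direction. Of 5 liver markers 3 were at least 2-fold higher in replicate 1 as well (20.3 and 8.07 TPM, median -1.10), led by Alb at 10.9 and 3.76 TPM. Their part in the difference of Aqp9 was not tested.

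Aqp9 has 10 transcripts in the deposited values, several of them with no counts in either library. The largest share of TPM, 47.2% and 67.6%, was on Aqp9-205, a processed transcript of 428 bases with 6 and 3 counts. The protein-coding Aqp9-202 held 55.6 counts in replicate 1 and 0.07 in replicate 2, and Aqp9-201 held 0 and 15.9. With so few reads the choice of transcript was not settled by these data. The gene body of Aqp9 also overlaps the antisense gene Gm32511 and the pseudogene Gm47268 of a later annotation, and overlap with exons was not checked.

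Aqp11 (ENSMUSG00000042797.8, chr7:97724006-97738289, minus strand) is the superaquaporin of the set, a channel of the endoplasmic reticulum whose loss is known to damage the kidney. It had 296 counts and 7.37 TPM in replicate 1 and 405 counts and 10.3 TPM in replicate 2 (8.85 ± 2.09 TPM, SD, n = 2), so replicate 2 was somewhat higher. The fold was 1.64 (1.41 to 1.91; log2 ratio 0.71), within 2-fold. Aqp1 was 134 and 94.4 times as high as Aqp11 in TPM. In replicate 2 Aqp11 took the third place in the family, ahead of Aqp3.

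**Figure D5:**
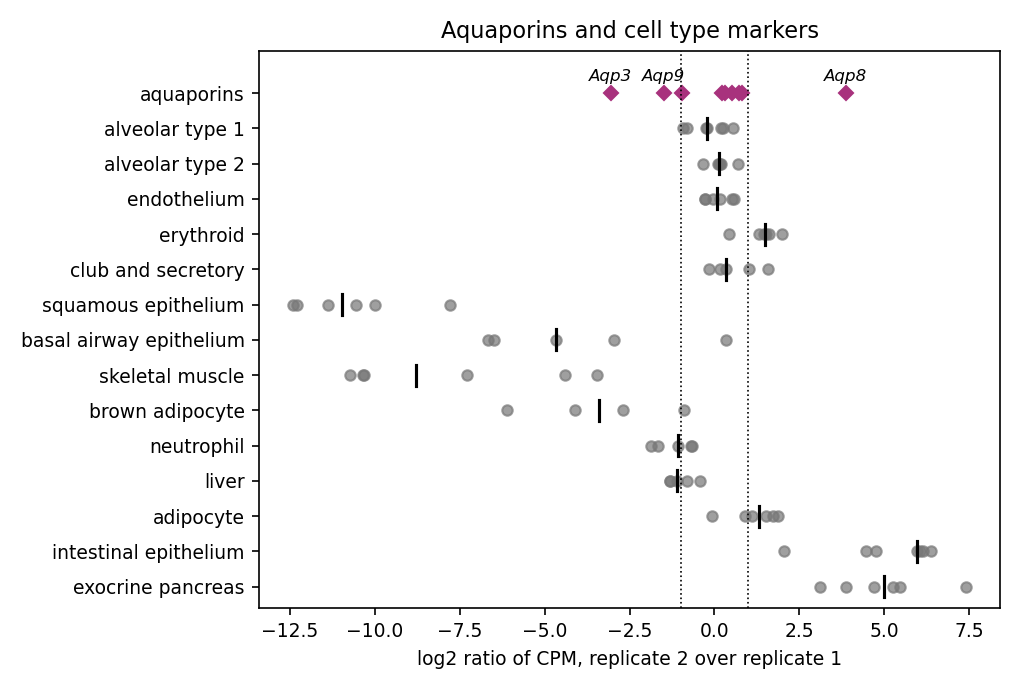
Log2 ratio of CPM, replicate 2 over replicate 1, for the 9 aquaporin genes (diamonds) and for the tested genes of 14 cell type marker lists (points, bar at the median), with dotted lines at 2-fold. Squamous, skeletal muscle, brown adipocyte, neutrophil and liver markers and 4 of 5 basal markers lie on the side of Aqp3 and Aqp9. Intestinal, pancreas and erythroid markers and most adipocyte markers lie on the side of Aqp8.

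The rest of the family was near 0: Mip, the lens channel, had no counts, and Aqp12, a channel of pancreatic acinar cells, had 0 and 4 counts.

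Few of the listed genes that work with aquaporins were 2-fold apart between the libraries. Of 14 genes of alveolar fluid transport, 13 reached 1 TPM in both libraries, and none of the 14 was 2-fold apart (1144 and 1137 TPM in all, median log2 ratio 0.12). All 13 genes of aquaporin partners and trafficking reached 1 TPM in both and none was 2-fold apart (1971 and 2076 TPM, median 0.02), led by the chaperone Hspa8. Of 14 genes of osmotic response and vasopressin signalling, 9 reached 1 TPM in both, 12 were tested and none was 2-fold apart (480 and 409 TPM, median -0.19), led by the kinase gene Wnk1.

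Glycerol and triglyceride genes, which supply or use what aquaglyceroporins carry, were all 10 at 1 TPM or more in both libraries. They summed to 684 and 766 TPM, with a median log2 ratio of 0.18, and were led by the lipase gene Pnpla2 at 256 and 333 TPM. Only Plin1, the lipid droplet coat protein that is also an adipocyte marker, was 2-fold apart, at 25.9 and 63.3 TPM (log2 ratio 1.51). Thus of these 4 lists, 1 gene of 49 tested was 2-fold apart, where 10.1% of all genes were. The lists were chosen with earlier results of these data known, so the low share is no independent result. At a mean count of at least 50, which most of the listed genes passed, 6.66% of all genes were. The median of all genes tested was -0.02.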

How the data were processed

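Expected counts, TPM and FPKM per gene and transcript were deposited by the authors. The expected count is an estimated fragment number, TPM is scaled for length to the same total in each library, and FPKM for length and library total, all per the file headers. Transcript shares, in percent of the gene's TPM, and TPM intervals were deposited by the authors too. Of the intervals' level and of the programs that aligned and quantified the reads, nothing is given in the sources used here. The build was mm10 and the annotation GENCODE M4, per the deposited file lists. The contig and junction lists, on mm9, were not used here.

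Symbols, coordinates and coding sequences came from GENCODE M21 on mm10; 42462 of 43346 identifiers matched. Expected counts were rounded. Log2 ratios were computed over the whole table with edgeR 4.0.16 in R 4.3.3 and with DESeq2 1.42.0 size factors as an alternative. Levels, lists and plots were made in Python 3.11.15 with pandas 2.3.3, numpy 2.4.6, scipy 1.17.1 and matplotlib 3.10.9. The scripts were tested on simulated data. A count of 0 was read as allowing up to 3 counts, for counting error only. Alternatives covered FPKM, counts, the deposited interval and posterior mean, scalings, pseudocounts, minimums and each library left out.

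The members and lists were chosen with earlier results of these data known. By the rule for names, all 10 members are named, and of the lists those 2-fold apart, those leading their list and defining markers. The leading gene of 1 list is not reported here. No gene of like pattern was sought, since 2 libraries of 1 group give no pattern.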

Additional observations from a re-analysis of the deposited data

How the results depend on the processing

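By counts without length scaling, 5 of the 10 members kept their place in the order of levels, and leaving out a replicate left 4 to 6 in place. Aqp1 held 67.1% of the family's TPM on average but 79.0% of its expected counts, and 64.3 to 70.0% in single libraries. Of the 10 members 6 were detected at 1 TPM in both libraries, 8 at 0.5 TPM, 4 at 5 TPM, and 7 to 8 in single libraries. The number 2-fold apart was 3; it was 1 (Aqp3) of 6 tested at a mean count of at least 50, where 6.66% of all genes were called, 4 with library size scaling or 0.1 added to TPM (with Aqp4), and 2 with 1 added (without Aqp9). DESeq2 size factors, a prior count of 0.5 and no count minimum each gave 3. Of 5 members with more than 1 transcript, all 5 had the same main one in both libraries by TPM and 4 by counts, the exception being Aqp9. The posterior mean and the interval centre raised Aqp9 to 1.90 and 1.93 TPM, Aqp7 to 2.85 and 2.88 TPM and Aqp6 from 0 to 0.0150 and 0.0222 TPM, and both lowered Aqp1 from 982 to 971 TPM. Aqp2, Aqp8 and Aqp9 had fewer than 100 counts a library, so their levels were the least precise among the members with counts. The ratios between libraries need both, so they were not run with a replicate left out. No paired analysis was possible because the labels give 1 group.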
